A study of Mus musculus with 15 samples.

Results

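Neuropeptide genes and the genes of neuropeptide receptors were examined for CpG methylation in mouse dentate gyrus. The set was a fixed list of 44 genes, of which 15 encode peptide precursors and 29 encode receptors, out of 21627 protein-coding genes in the gene table used. A CpG position belonged to a gene when it lay inside the gene or within 2 kb of it. Of 455836 CpG positions in the deposited table, 501 met this rule, and they fell in 35 of the 44 genes (12 of 15 peptide genes and 23 of 29 receptor genes). No position was measured in or near the other 9 genes, which were Sst, Gal and Nts among the peptides and Npy2r, Sstr3, Oprl1, Ntsr2, Oxtr and Trhr among the receptors.

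The data came from 15 female C57BL/6JRj mice aged 7.5 months, and each sample was the micro-dissected dentate gyrus of the hippocampus. The standard group spent 6 months in standard cages, the enriched group spent 6 months in an enriched environment, and the withdrawal group had 3 months of enrichment and then 3 months in standard cages, with 5 mice in each group. The comparisons ask what enrichment changed and what was left after it ended. Methylation was read by reduced representation bisulfite sequencing, in which restriction fragments rich in CpG are sequenced after bisulfite has converted unmethylated cytosines. The table gives a percentage for each cytosine and mouse without the number of reads, and read depth is therefore unknown. The number of the 501 positions with a value ran from 346 (standard mouse 1, 30.9% missing) to 478 (enriched mouse 3, 4.59% missing), and 114 positions had a value in all 15 mice. Over all CpG positions the mice had from 297844 to 444106 values, and any 2 mice correlated at 0.905 to 0.956 across positions, which are not independent replicates. Percentages do not show which genes were expressed, so the labelled tissue could not be checked against expression markers. In bulk tissue, a change in the share of cell types and a change within cells cannot be told apart.

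Neuropeptides are short signalling peptides that are cut from larger precursor proteins, stored in dense-core vesicles and released mainly during sustained firing. Most act on receptors coupled to G proteins, and 1 peptide often has several receptors. In the dentate gyrus, inhibitory interneurons make neuropeptide Y, somatostatin, vasoactive intestinal peptide or cholecystokinin, and granule cells carry dynorphin, a product of Pdyn, in their mossy fibre axons. CpG methylation is usually low at active, CpG-rich gene starts and high in the bodies of genes. Several peptide genes, Sst among them, are switched on by cyclic AMP through the motif TGACGTCA, the cyclic AMP response element, or its shorter core TGACG.

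Promoter entries, taken from RefSeq on GRCm38.p6, matched 35 of the 44 genes. The 250 bases before the transcript start held at least 1 measured CpG position in 11 of them. The promoters below are shown because measured positions lie in them and because they belong either to a gene whose start was compared between groups (Pdyn) or to a gene with TGACG or TGACGTCA in this window. They run 5' to 3' up to the base before the transcript start, and capitals mark the CpG dinucleotides with a measured position. Pdyn is chr2:129699939-129700188 (minus strand), Cck chr9:121495695-121495944 (minus), Trh chr6:92244651-92244900 (minus), Sstr2 chr11:113619077-113619326 (plus) and Avpr1a chr10:122448249-122448498 (plus).
Pdyn: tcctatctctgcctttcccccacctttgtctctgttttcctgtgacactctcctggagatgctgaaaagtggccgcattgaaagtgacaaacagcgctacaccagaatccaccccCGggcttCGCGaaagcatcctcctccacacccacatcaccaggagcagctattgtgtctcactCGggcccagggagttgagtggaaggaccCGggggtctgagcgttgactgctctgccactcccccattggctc
Cck: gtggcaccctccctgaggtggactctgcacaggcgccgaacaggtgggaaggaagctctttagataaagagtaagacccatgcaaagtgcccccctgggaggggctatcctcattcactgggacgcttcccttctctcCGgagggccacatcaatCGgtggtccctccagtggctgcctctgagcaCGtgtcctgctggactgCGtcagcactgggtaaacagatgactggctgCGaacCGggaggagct
Trh: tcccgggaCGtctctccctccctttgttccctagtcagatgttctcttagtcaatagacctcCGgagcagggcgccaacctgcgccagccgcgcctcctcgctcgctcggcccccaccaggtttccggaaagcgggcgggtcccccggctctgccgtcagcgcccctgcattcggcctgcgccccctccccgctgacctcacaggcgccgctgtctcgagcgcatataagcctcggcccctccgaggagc
Sstr2: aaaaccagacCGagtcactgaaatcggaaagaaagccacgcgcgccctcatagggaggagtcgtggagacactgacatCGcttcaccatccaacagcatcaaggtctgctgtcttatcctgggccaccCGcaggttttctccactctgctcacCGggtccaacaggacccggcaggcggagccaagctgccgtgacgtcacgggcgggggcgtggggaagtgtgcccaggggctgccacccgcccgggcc
Avpr1a: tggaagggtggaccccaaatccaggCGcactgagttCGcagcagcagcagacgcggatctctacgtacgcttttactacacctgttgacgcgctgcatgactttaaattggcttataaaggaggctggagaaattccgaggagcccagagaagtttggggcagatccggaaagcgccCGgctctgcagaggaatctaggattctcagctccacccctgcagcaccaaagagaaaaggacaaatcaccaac
For Adcyap1 and Tacr1 the listed transcript start lies inside the annotated gene, so only 30 bases are shown, chosen to hold a measured TGACG where there is one and otherwise the most measured CpG dinucleotides. They are chr17:93198926-93198955 and chr6:82402338-82402367, both on the plus strand, and the last capital C of Adcyap1 is followed by its G outside the stretch.
Adcyap1: tgaCGtcttttactgatacCGgatcattaC
Tacr1: gtagtCGCGgggctcccttggagagcacCG
Mean methylation in the promoter windows was 2.47% over 6 positions in Pdyn, 2.05% over 8 in Cck, 3.62% over 2 in Trh, 0.219% over 4 in Sstr2 and 5.56% over 4 in Avpr1a, of which 1 is the last base shown. Tacr1 had 4.07% over 7 positions and Adcyap1 21.1% over 7. The Adcyap1 promoter was the only one of these 7 above 6%, and 2 of its measured positions lie in TGACG, the first bases of the stretch shown. In Cck, 2 measured positions lie in the same core, written CGTCA on the strand shown. Their methylation was 5.02% and 1.55%.

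The search for the motif covered both strands of the 250 bases, and TGACG is also part of TGACGTCA. TGACGTCA was found in 2 of 35 promoters of the set, those of Sst and Sstr2 (5.71%), against 2.03% of 17273 promoters of protein-coding genes. TGACG was found in 14 of 35 (40%) against 20.5% of all. The share was 7 of 13 for peptide genes and 7 of 22 for receptor genes. The TGACGTCA of Sstr2, a somatostatin receptor, starts at -58, and none of its 4 measured positions falls in it. These counts describe the sequences only. No methylation value came from the promoters of Npy1r, Npy5r and Oprd1, whose measured positions near the gene start lie outside these windows.

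**Figure D1:**
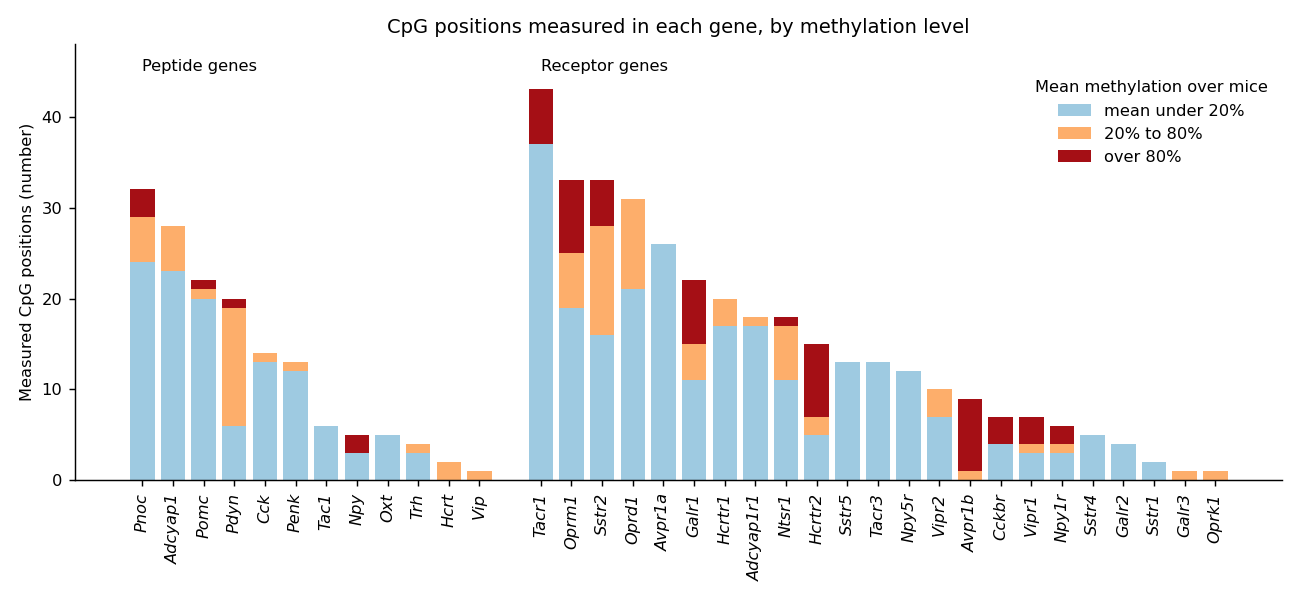
Bars give the number of measured CpG positions in each of the 35 genes, split by mean methylation over mice (under 20%, 20% to 80%, over 80%), with peptide genes on the left and receptor genes on the right. Tacr1 has the most positions, 43, and 361 of the 501 positions are under 20%.

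Most positions of the set were little methylated. Of the 501, 72.1% averaged less than 20% over mice, 16.4% fell from 20% to 80%, and 11.6% exceeded 80%, against 52.4%, 17.2% and 30.4% of all CpG positions. Positions over 80% made up 4.61% of the 152 in peptide genes and 14.6% of the 349 in receptor genes. The plot of positions by gene shows that a few receptors, Oprm1, Hcrtr2, Avpr1b and Galr1, held most of the highly methylated ones. Neighbouring positions share restriction fragments and reads, so these counts describe the genes and carry no test.

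**Figure D2:**
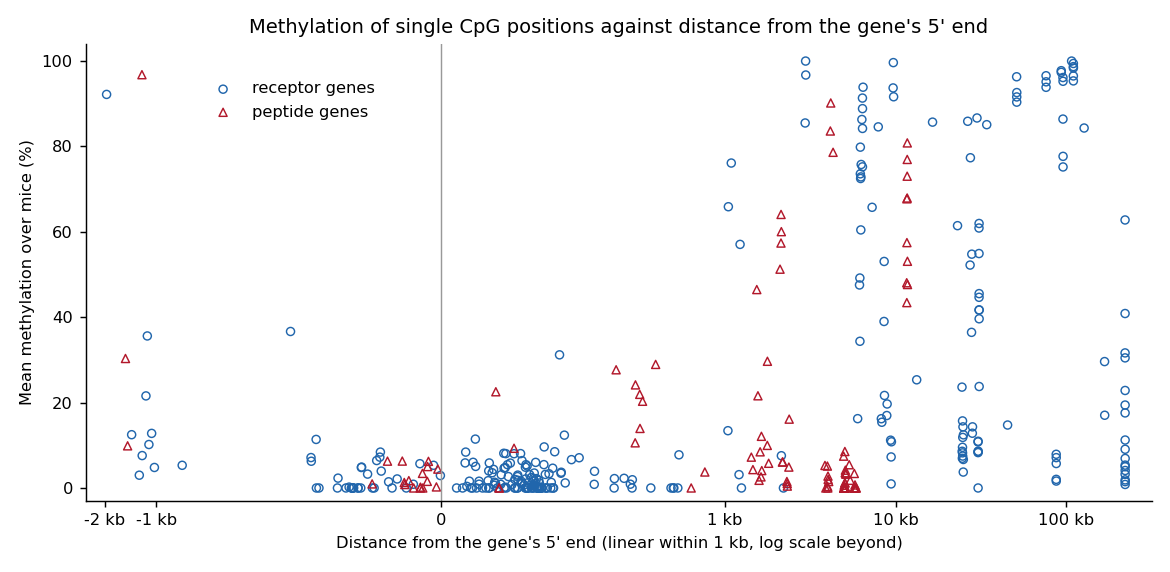
Each symbol is 1 CpG position, placed by its distance from the annotated 5' end of its gene (horizontal axis, linear within 1 kb and logarithmic beyond) and its mean methylation over mice in percent (vertical axis), for the 408 positions in genes of known strand. Within 1 kb of the 5' end 185 of 193 positions lie under 20%, and farther inside the genes the values spread from 0% to 100%.

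Gene starts were low. Within 1 kb of the annotated 5' end, 193 positions were measured in 21 genes, and 95.9% of them were under 20%, close to the 94.4% over all genes. Receptor genes had 162 of 164 such positions under 20%, and peptide genes had 23 of 29, with 5 of the 6 exceptions in Adcyap1 and 1 in Pomc. Farther inside the genes the figure was 52.5% of 198 positions, against 44.8% for all genes. There the peptide genes had 75.3% of 73 positions under 20% and the receptor genes 39.2% of 125. A large part of the low peptide positions came from Pomc and Adcyap1. Pomc had 20 in a single stretch with a mean of 1.67%, and Adcyap1 had stretches of 8 and 9 with means of 2.13% and 0.457%. The peptide share thus rests largely on these genes and does not describe peptide genes in general. None of the 193 positions within 1 kb exceeded 80%. These distances cover genes of known strand only, and the positions over 80% in Avpr1b, Galr1 and Pnoc have no distance. They are counted from the annotated 5' end. In some genes, such as Oprm1 and Oxt, a listed transcript start lies more than 1 kb farther in. Low positions near such a start are counted here as farther inside the gene.

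Among the peptide genes, Npy, the precursor of neuropeptide Y, had 3.10% over 3 positions at 205 to 258 bases and 86.9% over 2 positions at 4142 to 4165 bases. Vip had a single measured position, 4298 bases in, at 78.6%. Adcyap1, which encodes the peptide PACAP, went the other way along the gene. Its 7 positions at 617 to 756 bases, just before the listed transcript start, averaged 21.1%, and its 21 positions farther in fell in 4 stretches of 0.457% to 6.09%. Cck, the cholecystokinin precursor, had 2.05% from -112 to -10 and 8.98% at 1583 to 1802 bases. Pomc, the precursor of beta-endorphin and the melanocortins, had 20 positions near its 3' end, at 4957 to 5111 bases, that averaged 1.67%, and 1 position at -1214 with 96.8%. Penk, the enkephalin precursor, had 10.7% and 1.01% in 2 stretches of 5 and 8 positions. Among these genes, stretches with low means were thus found more than 1 kb past the annotated 5' end in Adcyap1, Cck and Pomc. The highest position of that Cck stretch had 29.7%. The 2 body positions of Npy and the single one of Vip were methylated, too few to describe the body of either gene.

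Tac1, the precursor of substance P, had 1.87% at 881 to 929 bases and 8.02% at 1426 to 1634. Oxt, the oxytocin precursor, had 4.80% over 5 positions at 2304 to 2377 bases, all with a value in every mouse. These positions (130576823 to 130576896 on chromosome 2) lie less than 1 kb past the listed transcript start, 130576169. Trh, which encodes thyrotropin-releasing hormone, had 3.62% in its promoter and 20.1% over 2 positions from -1516 to -1473. The 2 positions of Hcrt, the hypocretin precursor, lay past the end of the gene and averaged 34.0%. Pnoc, the precursor of nociceptin, was uneven, with 7 stretches between 4.19% and 92.1%. Pdyn was uneven too and is described below.

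Among the receptor genes, the Y receptors Npy5r and Npy1r were measured near the 5' end. Npy5r had 1.53% over 12 positions at 92 to 401 bases. Npy1r had 15.4% over 4 positions from -528 to -438, and single positions at -1956 and 7909 had 92.2% and 84.6%. The somatostatin receptors measured near a start were low, with 0.876% for Sstr2 over 14 positions, 3.98% for Sstr4 over 4 and, inside the gene, 1.55% for Sstr5 over 13. The 3' part of Sstr2, at 6140 to 6441 bases, had 72.4% over 15 positions. All 33 positions of Sstr2 also lie inside the gene Slc39a11, so they cannot be assigned to 1 of these genes. In Vipr2, a receptor for VIP and PACAP, methylation went from 1.52% at 298 to 355 bases to 66.4% at 1046 to 1225 bases. Its relative Vipr1 had 94.1% at 2949 to 2973 bases. Adcyap1r1, the PACAP receptor, stayed between 1.59% and 18.3% in all 6 stretches measured along 45306 bases. Cckbr, the main cholecystokinin receptor of the brain, had 2.41% at 169 to 370 bases and 94.99% at 9664 to 9730.

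Among the opioid receptor genes, Oprm1, the mu receptor, had 7.85% over 6 positions at 30402 to 30462 bases. These positions (6788995 to 6789055 on chromosome 10) lie less than 1 kb past further listed transcript starts, at 6788570 and 6788576. Oprm1 reached 97.6% to 100% in 3 stretches between 93449 and 110090 bases. Farther in it had 16.2% over 17 positions at 221124 to 221455 bases, where single positions ran from 0.826% to 62.8%. That last stretch and the 2 positions before it also lie in Ipcef1. Oprd1, the delta receptor, had 2.69% over 22 positions at 213 to 418 bases and 46.1% over 9 positions at 30795 to 30867. Oprk1, the kappa receptor on which dynorphin acts, had 1 position, at 68.5%. A like pattern of methylated and low stretches was seen in Hcrtr2, a hypocretin receptor, with 92.7% at 51184 to 51289 bases, 4.87% at 87305 to 87366 and 86.1% at 95615 to 95778.

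The tachykinin receptors had low starts, 1.86% over 35 positions in Tacr1, the receptor of substance P, and 0.917% over 13 in Tacr3. Farther in, single positions of Tacr1 at 16455, 26451 and 127273 bases had 85.7%, 85.9% and 84.3%, and the stretch at 76124 to 76179 had 95.2%. Between these methylated positions lay a low stretch, with 13.6% at 28156 to 28215. Ntsr1, a neurotensin receptor, had 5.37% at 325 to 487 bases and from 8.24% to 85.1% farther in. The vasopressin receptors Avpr1a and Avpr1b were measured in unlike places, so their levels do not compare the genes. Avpr1a had 3.06% over 23 positions from -279 to 394, and Avpr1b had 83.4% over 9 positions outside the gene, 1 of them at 34.8% and the other 8 from 80.6% to 94.9%. Hcrtr1 had 3.84% over 13 positions near its start. The galanin receptors were measured as 6 stretches of 3.71% to 97.7% in Galr1, 2 of 1.56% and 3.78% in Galr2, and 1 position at 51.5% in Galr3. Sstr1 had 2 positions at 0.455% on average.

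Comparisons between groups used 3 units. A gene region was the mean over positions with values in all 15 mice, inside the gene or within 2 kb, where there were at least 3. This gave 15 genes of the set. A gene start was the same within 1 kb of the annotated 5' end, which gave 5 genes, and single positions were tested where they varied by at least 5 percentage points, which gave 103.

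**Figure D3:**
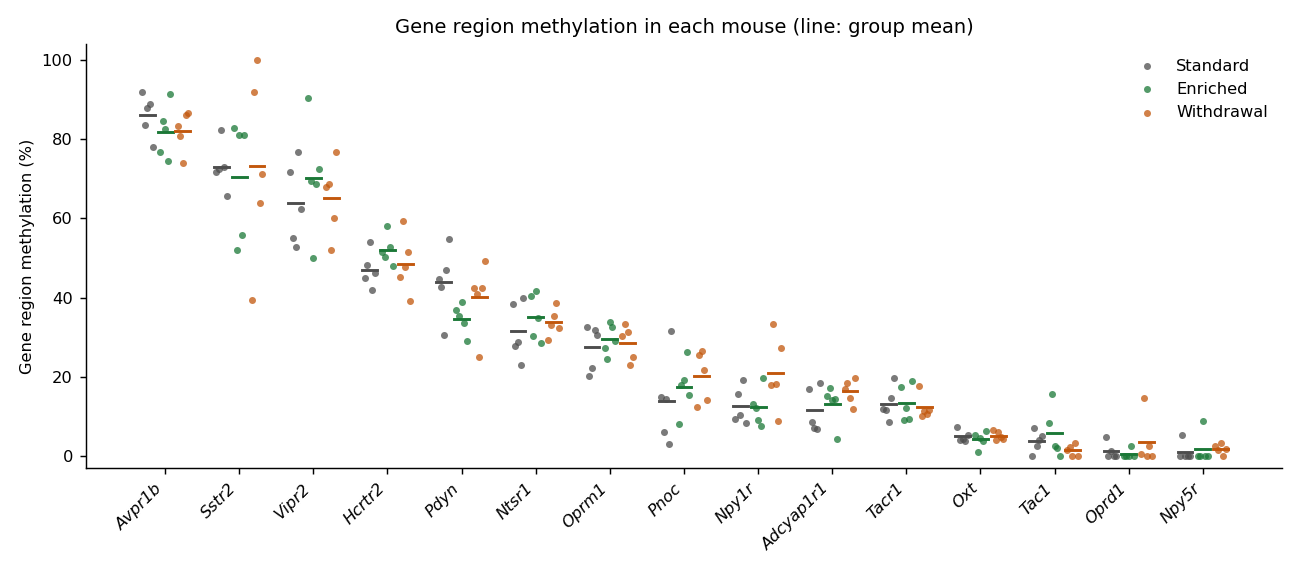
Points give the gene region methylation (percent) of each of the 15 mice for the 15 genes with at least 3 complete positions, ordered by mean level, and lines give the group means. The levels run from 83.4% in Avpr1b to 1.58% in Npy5r, and the 3 housing groups overlap in every gene.

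Levels differed far more between genes than between groups. Over complete positions, Avpr1b (83.4%), Sstr2 (72.3%), Vipr2 (66.4%) and Hcrtr2 (49.2%) were highest. Npy5r (1.58%), Oprd1 (1.75%), Tac1 (3.65%) and Oxt (4.80%) were lowest. Between them lay Pdyn, Ntsr1, Oprm1, Pnoc, Npy1r, Adcyap1r1 and Tacr1, from 39.5% down to 13.0%. Neighbours in this order, such as Npy5r and Oprd1 or Adcyap1r1 and Tacr1, differed by less than the spread between mice of a group. Averaged over genes, the 4 peptide regions had 16.7% ± 4.41 (SD, n = 5) in the standard group, 15.5% ± 1.90 in the enriched group and 16.7% ± 1.62 in the withdrawal group. The 11 receptor regions had 33.5% ± 1.63, 34.6% ± 2.56 and 35.1% ± 3.40. All regions tested, 8347 genes, had 33.0% ± 0.367, 33.2% ± 0.891 and 33.5% ± 0.365. The mean of the peptide regions was below that of the receptor regions in each mouse, from 12.6% to 24.2% against 31.7% to 40.5%. All mice share the same few genes, so this does not replicate a difference between the kinds. Single genes of the kinds overlapped, with Pdyn above Ntsr1 and Oprm1, and Npy5r and Oprd1 below every peptide region. Regions under 20% were 3 of 4 for peptides and 5 of 11 for receptors, against 47.4% of all regions. The group means of each kind differed by less than their spread. No test was made on these means. The order of single genes depended on the positions used. With positions that lack values in some mice included, Vipr2 had 21.6% over 10 positions and Sstr2 36.0% over 33. Npy1r then had 39.5% over 6, Oprd1 15.2% over 31 and Hcrtr2 60.7% over 15. Avpr1b, Npy5r, Tac1 and Oxt had 83.4%, 1.73%, 5.89% and 4.80%.

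No gene region of the set passed the test in any comparison. For enriched against standard, limma with Benjamini-Hochberg adjustment called 0 of 15, where 0.0120% of all regions were called (1 gene, Slc5a1), and at an unadjusted p under 0.05 it gave 0 of 15, against 6.04% of all regions. For withdrawal against standard it called 0 of 15 (0% of all regions), and 0 of 15 had an unadjusted p under 0.05 (5.34% of all). For withdrawal against enriched it called 0 of 15 (0%), again with 0 at an unadjusted p under 0.05 (4.84%). The smallest adjusted p in the set was 0.827, 0.947 and 0.995 in these comparisons. The median difference over the 15 genes was 0.714, 1.12 and 0.254 percentage points, beside 0.0555, 0.293 and 0.211 over all regions. Differences were 9, 11 and 9 times positive among the 15, and the median over all regions was positive in each comparison as well. These counts were not tested and are not read as a result about the set. The standard mice serve in the first 2 comparisons and the withdrawal mice in the last 2, so these values are not independent.

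**Figure D4:**
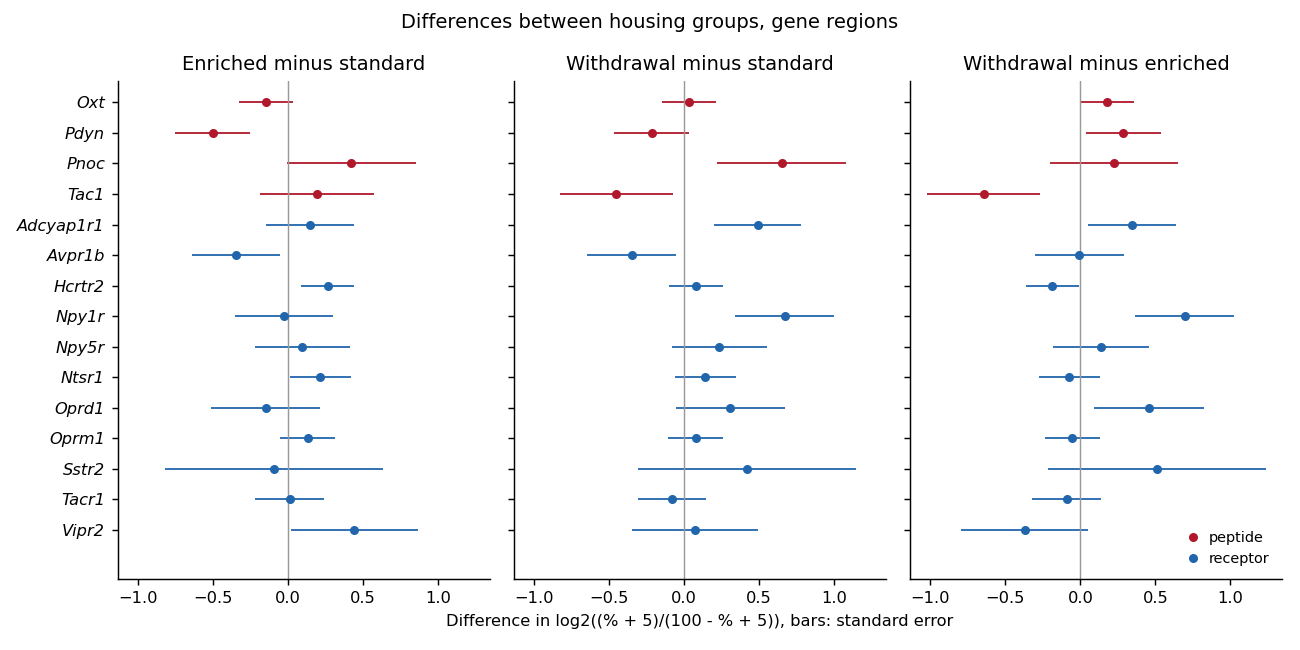
Points give the difference between 2 housing groups in log2((percent + 5)/(100 - percent + 5)) for each of 15 gene regions, and bars give the standard error, with peptide genes in red and receptor genes in blue. The differences lie between -0.64 (Tac1, withdrawal minus enriched) and 0.69 (Npy1r, withdrawal minus enriched).

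Pdyn, which encodes the dynorphins, had the smallest unadjusted p among the regions of the set for enriched against standard. Its 12 complete positions averaged 44.6%, 42.7%, 30.7%, 46.9% and 54.7% in standard mice 1 to 5. In the enriched mice they averaged 36.9%, 35.3%, 38.9%, 33.5% and 28.9%, and in the withdrawal mice 42.4%, 41.0%, 25.1%, 42.4% and 49.4%. Standard mouse 3 lay among the enriched mice and the other standard mice lay above them. The group means were 43.9% ± 8.69, 34.7% ± 3.78 and 40.04% ± 8.96. The enriched minus standard difference was -9.21 points, or -0.50 ± 0.25 (SE) on the log2 ratio scale (limma, adjusted p = 0.827, and 0.702 to 0.937 over its alternatives). With positions that lack a value in some mice included it was -2.43 points, and with the gene body alone it was -14.6 points.

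**Figure D5:**
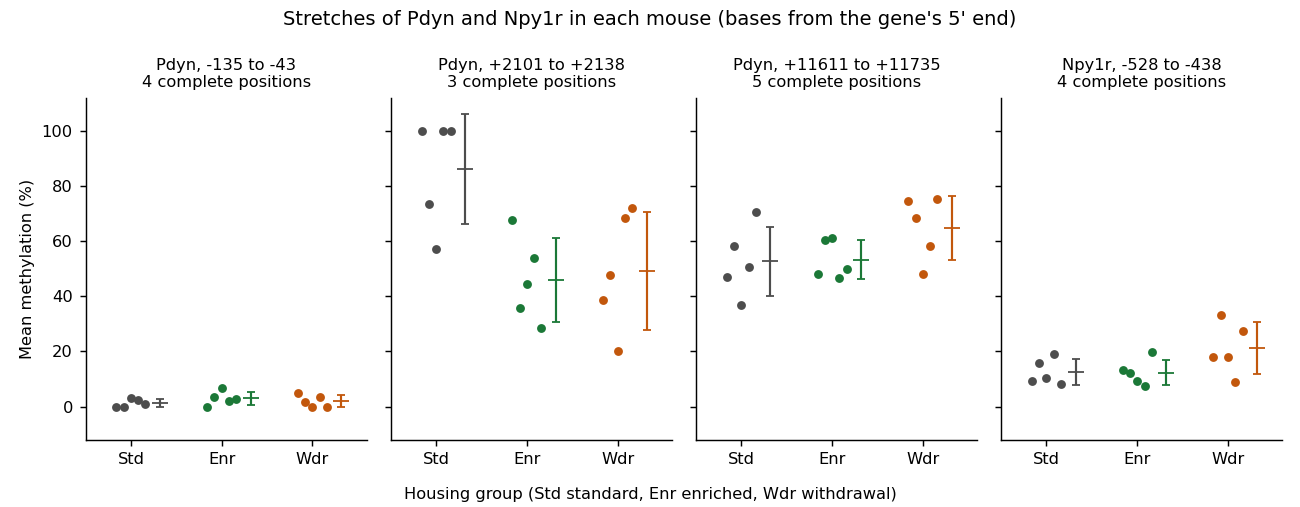
Points give the mean methylation (percent) of each mouse over the complete positions of 3 stretches of Pdyn and 1 of Npy1r, named by their distance in bases from the gene's 5' end, and bars give the group mean and SD of 5 mice. At 2101 to 2138 bases of Pdyn 3 standard mice are at 100% and the enriched mice lie between 28.5% and 67.6%.

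Within Pdyn, the group means over complete positions stood furthest apart, in points, in 1 of 3 stretches. The 4 complete positions in its promoter averaged 1.30% ± 1.43, 2.96% ± 2.40 and 2.03% ± 2.17 in the standard, enriched and withdrawal groups. The 3 complete positions at 2101 to 2138 bases had 100%, 73.4%, 57.0%, 100% and 100% in the standard mice. The enriched mice had 67.6%, 35.7%, 44.6%, 53.7% and 28.5%, and the withdrawal mice 38.7%, 47.6%, 20.2%, 68.3% and 71.9%. Standard mice 1, 2, 4 and 5 thus lay above every enriched and withdrawal mouse, and standard mouse 3 lay within both groups. The means were 86.1% ± 19.9, 46.0% ± 15.3 and 49.4% ± 21.4. Farther along, at 11611 to 11735 bases, the 5 complete positions averaged 52.7% ± 12.6, 53.3% ± 7.08 and 64.9% ± 11.6. All 10 positions there, missing values allowed, gave 49.1% ± 5.23, 62.3% ± 11.6 and 69.8% ± 5.05. The standard mean was thus the lowest there, whereas at 2101 to 2138 bases it was the highest. The stretches were singled out after their values were seen and carry no test of their own.

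The position of Pdyn with the smallest p of the whole set was 129697810 on chromosome 2 (plus strand, GRCm38), inside the gene and 2128 bases from its 5' end. It had 100%, 72.0%, 60.0%, 100% and 100% in the standard mice, 68.0%, 7.14%, 47.1%, 44.7% and 20% in the enriched mice and 41.7%, 48.1%, 20.7%, 59.4% and 71.8% in the withdrawal mice. Enriched mouse 1 overlapped the standard mice, and the other 4 lay below all of them. The enriched minus standard difference was -49.0 points, -3.83 ± 0.94 (SE) on the log2 ratio scale (limma, adjusted p = 0.589, and 0.356 to 0.886 over its alternatives). It stayed between -56.7 and -41.5 points when any 1 mouse was left out. Its neighbours at 129697808 and 129697800 differed by -37.5 and -33.7 points (limma, adjusted p = 0.729 and 0.821). For withdrawal against standard the differences were -38.1, -34.7 and -37.3 points in the same order (limma adjusted p = 0.961 for each). The 3 positions lie close together on 1 strand and can come from the same reads, so they are not separate evidence.

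Npy1r, the gene of a neuropeptide Y receptor, was highest in the withdrawal group. Its 4 complete positions from -528 to -438 had 9.32%, 15.8%, 10.4%, 19.2% and 8.34% in standard mice and 13.2%, 12.1%, 9.22%, 7.62% and 19.7% in enriched mice. The withdrawal mice had 17.9%, 33.3%, 18.1%, 8.90% and 27.3%. Withdrawal mice 2 and 5 lay above all others, and withdrawal mice 1, 3 and 4 lay within the ranges of both other groups. The means were 12.6% ± 4.66, 12.4% ± 4.67 and 21.1% ± 9.43. Withdrawal minus standard was 8.50 points, 0.67 ± 0.33 (SE) on the log2 ratio scale (limma, adjusted p = 0.947). Withdrawal minus enriched was 8.74 points, 0.69 ± 0.33 (limma, adjusted p = 0.995). Without withdrawal mouse 2 the differences were 5.45 and 5.69 points. The position at -455 (66696694 on chromosome 8, minus strand) had 10% in standard mouse 1 and 0% in the other 4. The enriched mice had 0%, 0%, 4.08%, 0% and 9.30%, and the withdrawal mice 13.7%, 5.97%, 14.3%, 5.26% and 31.4%. The withdrawal group was above 4 of 5 mice of each other group, with a difference of 12.1 points from standard (limma, adjusted p = 0.961) and 11.4 points from enriched (limma, adjusted p = 0.976). Without withdrawal mouse 5 these were 7.80 and 7.13 points.

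Adcyap1 had 1 complete position, 93198862 on chromosome 17 (plus strand), which opens the stretch before the listed transcript start. It had 60.0%, 20.8%, 27.3%, 33.3% and 35.1% in standard mice, 38.7%, 26.3%, 17.9%, 23.3% and 68.2% in enriched mice, and 0%, 0%, 9.38%, 35.9% and 19.0% in withdrawal mice. Withdrawal mice 1, 2 and 3 lay below all mice of the other groups, and withdrawal mice 4 and 5 lay among them. The difference was -22.5 points from standard (limma, adjusted p = 0.961) and -22.0 points from enriched (limma, adjusted p = 0.976), the latter -13.7 points without enriched mouse 5. Over all 7 positions of the same stretch, missing values allowed, the groups had 21.2% ± 11.1, 27.9% ± 14.8 and 19.6% ± 13.7, which differ by less than their spread.

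Hcrtr2 had 47.1% ± 4.49 in the standard group, 52.1% ± 3.73 in the enriched group and 48.6% ± 7.54 in the withdrawal group over 11 positions. Enriched minus standard was 5.03 points, 0.27 ± 0.18 (SE) on the log2 ratio scale (limma, adjusted p = 0.862). Its position 76227845 on chromosome 9, 95778 bases from the 5' end, had 65.5% ± 18.1 in standard and 89.0% ± 12.7 in enriched mice (limma, adjusted p = 0.914). Avpr1b had 86.0% ± 5.40, 81.9% ± 6.71 and 82.2% ± 5.15, with an enriched minus standard difference of -4.14 points (limma, adjusted p = 0.887). It was -2.25 points without enriched mouse 4, -6.50 without enriched mouse 5 and -2.65 without standard mouse 1. At 131613805 on chromosome 1 it had 97.8% ± 3.77 in standard and 85.9% ± 8.56 in enriched mice (limma, adjusted p = 0.913). Enriched mouse 5, at 100%, lay among the standard mice there, and the other 4 lay below them.

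Adcyap1r1 had 11.6% ± 5.63, 13.1% ± 4.97 and 16.4% ± 3.07, with a withdrawal minus standard difference of 4.76 points (limma, adjusted p = 0.974). Over all 18 positions, missing values allowed, the means were 12.4%, 8.28% and 13.8%, the enriched group was lowest, and that difference was 1.38 points. Pnoc had 14.0% ± 11.0, 17.4% ± 6.53 and 20.1% ± 6.44, and the same difference was 6.10 points (limma, adjusted p = 0.974). It was 0.607 points over all 32 positions, missing values allowed, 3.37 without standard mouse 4 and 10.5 without standard mouse 5. Standard mouse 5 had the highest Pnoc value of all mice, 31.5%, and standard mouse 4 the lowest, 3.06%. Tac1 had 3.79% ± 2.73, 5.75% ± 6.41 and 1.43% ± 1.44, with -4.32 points for withdrawal minus enriched (limma, adjusted p = 0.995). The enriched mean of Tac1 rested on mouse 2, at 15.8%, and mouse 1, at 8.33%, and without mouse 2 the difference was -1.81 points. Oprd1 had 1.22% ± 2.06, 0.526% ± 1.18 and 3.51% ± 6.28, and most of the last mean came from withdrawal mouse 2, at 14.6%, where the next mouse had 2.5%. Its difference between withdrawal and enriched was 2.98 points (limma, adjusted p = 0.995) and -0.306 points when positions with missing values were included, and 0.210 points without withdrawal mouse 2.

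At gene starts, limma called 0 of 5 members in each comparison, as it did for all 3074 starts (0%, 0% and 0%), and at an unadjusted p under 0.05 it gave 0 of 5 each time, against 5.14%, 5.01% and 5.07% of all starts. Pdyn, Oprd1, Tacr1, Npy1r and Npy5r were the 5 members. Npy1r and Oprd1 had no other complete positions, so their start values are those given above. Tacr1 had 2.04%, 0%, 2.07%, 1.96% and 7.58% in standard mice, 3.71%, 3.01%, 4.26%, 1.52% and 7.24% in enriched mice and 4.76%, 0%, 0.501%, 1.09% and 0% in withdrawal mice. The withdrawal mice lay below the enriched mice except for mouse 1. Withdrawal minus enriched was -2.68 points, -0.57 ± 0.28 (SE) on the log2 ratio scale (limma, adjusted p = 0.869). Over all 35 positions of the Tacr1 start, missing values allowed, it was -0.870 points. Npy5r had a value above 0 in 1 of 5 standard, 1 of 5 enriched and 4 of 5 withdrawal mice, up to 8.97%, and group means of 1.08% ± 2.42, 1.79% ± 4.01 and 1.85% ± 1.204.

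Of the 103 single positions tested, limma called 0 in each comparison, as it did among all 100562 positions (0%, 0% and 0%). Unadjusted p-values below 0.05 were found at 8, 8 and 3 of the 103 for enriched against standard, withdrawal against standard and withdrawal against enriched, beside 5.15%, 4.42% and 4.30% of all positions. In the first comparison the 8 were 3 in Pdyn, 2 in Avpr1b, 2 in Hcrtr2 and 1 in Oprm1, so they came from 4 genes. In the second they were 3 in Pdyn, 2 in Npy1r and 1 each in Adcyap1, Oprm1 and Vipr1. The last 3 were in Npy1r, Adcyap1 and Vipr1. The Vipr1 position, 121641458 on chromosome 9, had 22.2% and 22.7% in withdrawal mice 1 and 4 and 0% in the other 13 mice, and it lies inside Lyzl4 as well.

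Mice of 1 group differed most in Sstr2, Vipr2 and Pnoc, with pooled within-group SDs of 16.7, 11.5 and 8.29 points. Sstr2 ran from 65.7% to 82.4% in the standard group, 52.1% to 82.7% in the enriched group and 39.4% to 100% in the withdrawal group over 5 complete positions. Vipr2 ran from 52.9% to 76.8%, 49.96% to 90.4% and 52.1% to 76.7% over 3 positions. With all 33 positions of Sstr2, missing values allowed, its within-group SD was 4.30 points, and that of Vipr2 over 10 positions was 7.47. The part of the number of positions in these spreads was not tested.

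Other genes of the same signalling system were read from lists drawn up with this set. Gene regions could be tested for 4 of 31 further neuropeptides, 10 of 33 further receptors, 6 of 13 genes of prohormone processing and dense-core vesicles, and 7 of 10 genes of peptide degradation. Limma called 0 of them, higher or lower, in any comparison. Trhr2, the other receptor of thyrotropin-releasing hormone, was lower by 16.8 points in enriched than in standard mice (limma, adjusted p = 0.712). Cpe, which trims peptide precursors, was higher by 8.74 points (limma, adjusted p = 0.789). Of the 10 further receptors, 2 had an unadjusted p under 0.05 for enriched against standard (Calcr and Trhr2, where 6.04% of all regions did), 1 for withdrawal against standard (Ghsr, 5.34% of all) and 2 for withdrawal against enriched (Calcr and Trhr2, 4.84% of all). Nmb, which encodes neuromedin B, was higher by 5.12 points in withdrawal than in standard mice (limma, adjusted p = 0.931). Values for marker genes of cell types that a dissection can hold did not pass the test either, with 0 called of 2 granule neuron, 4 interneuron, 4 oligodendrocyte, 3 astrocyte and 1 microglia regions. Among them Gad2, which makes GABA in interneurons, was higher by 4.70 points in withdrawal than in enriched mice (limma, adjusted p = 0.810), and Olig2, an oligodendrocyte lineage factor, by 9.11 points (limma, adjusted p = 0.959). The median withdrawal minus enriched difference was -1.67 points over the 4 interneuron regions, against the direction of Gad2, and 6.94 points over the 4 oligodendrocyte regions. The mean over the 4 interneuron regions ran from 25.3% to 31.1% in the standard group, 27.8% to 30.9% in the enriched group and 19.8% to 32.9% in the withdrawal group. Its group means were 28.6%, 29.1% and 28.3%. The part of cell make-up in the values of Npy1r, Pdyn and Adcyap1 was not tested.

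Methylation outside CpG was near 0 in the set. Over 11 genes with at least 20 complete non-CpG positions the median level was 0.792%, from 0.273% in Avpr1a to 1.38% in Vipr2. The median over 6387 genes was 0.647%, with 5th and 95th percentiles of 0.347% and 1.44%, so the genes of the set lay within the usual range, except for Avpr1a, which was below the 5th percentile. These values include cytosines that bisulfite left unconverted.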

How the data were processed

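Per the labels and the submitters' processing notes, reads were trimmed with Trim Galore 0.4.0 and cutadapt 1.8.1, aligned to mm10 with Bismark 0.16.1 and handled in methylKit 1.5.2. The authors deposited 1 table of percent methylation per cytosine and mouse, without read counts, so coverage, intervals and counting error are unknown. The table has no context column. Its first 455836 positions were taken as CpG, because 34259 of 34259 that fall in RefSeq promoter sequences lie on a CG, against 0 of 94194 of the 2462278 that follow.

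Members and lists were chosen with earlier results of these data known. Genes were GRCm38 RefSeq entries, and strand came from the promoter table (17273 of 21627 genes). Group means of log2((percent + 5)/(100 - percent + 5)) were compared over 15 mice in limma 3.58.1 (R 4.3.3) with a trended variance, two-sided, and Benjamini-Hochberg adjustment over all features of a level at a threshold of 0.05. The procedure was run on simulated, independent normal values with known changes put in. The smallest difference that 5 mice per group could detect is not given here. The absence of calls therefore does not show that methylation was unchanged. Members named with full values were the 3 with the smallest p at each level and comparison, the 4 highest and 4 lowest in level, and the 3 with the largest spread within groups, and stretches join positions up to 300 bases apart. Replicate numbers were not used to pair mice. Alternatives changed the offset, the positions used, the model and the mice left out. A start taken at the first listed transcript was added after the data were seen.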

Additional observations from a re-analysis of the deposited data

Results flagged for a closer look

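In 9 of 51 groups of 5 mice, 1 mouse stood apart from the other 4 in a gene region or gene start. The cut-off marks about 1 in 20 groups when values are normally distributed, which percentages tied at 0 are not. The share over all gene regions was not computed, and the Tacr1 start is part of the Tacr1 region. The count is therefore not read as an excess. Many of these are genes near 0%, where 1 mouse above 0 is enough. Adcyap1r1 had 4.41% in enriched mouse 5, and the nearest other mouse had 14.2%. Npy5r had 8.97% in enriched mouse 3 and 5.41% in standard mouse 2, with the other mice of each group at 0%. Oprd1 had 2.63% in enriched mouse 4 (nearest 0%), 4.76% in standard mouse 1 (nearest 1.34%) and 14.6% in withdrawal mouse 2 (nearest 2.5%). The Tacr1 region had 17.8% in withdrawal mouse 1, with 11.6% in the nearest mouse. At the Tacr1 start, standard mouse 5 had 7.58% (nearest 2.07%) and withdrawal mouse 1 had 4.76% (nearest 1.09%).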

How the results depend on the processing

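No member was called in any of 225 alternative counts by limma, and the lowest adjusted p of a member in any of them was 0.356. Of 663 alternative values for 27 named differences, 659 kept their direction and their side of the threshold, and the 4 that reversed were all for Oprd1. This count says little, because the differences were named for their small p and most alternatives left out 1 mouse. Sizes could change much without a reversal, as in Pnoc and Pdyn when positions that lack values were included. Oprd1 was the gene that reversed. Its region difference between withdrawal and enriched was -0.306 points with positions that lack values in some mice, and its start difference between enriched and standard was 1.12 points with those positions. With 1 mouse left out that start difference ran from -1.22 (without enriched mouse 4) to 0.191 points (without standard mouse 1), and the one between withdrawal and standard from -0.484 (without withdrawal mouse 2) to 3.17 points (without standard mouse 1). The cause was not tested. The mean of the peptide genes was 16.3% and became 13.0% with positions that lack values (7 genes) and 21.0% with the gene body only (4 genes). That of the receptor genes was 34.4% and became 30.7% (16 genes) and 31.2% (9 genes), where other genes and positions enter the mean. Same-numbered mice did not deviate together, with correlations from -0.0294 to 0.0444 and 0 of 5 pairs over 0.1 in each comparison. With the replicate number as a block 0 members were called, and the lowest adjusted p was 0.734 (limma). Unknown read coverage limits every single position.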
